A study of Mus musculus with 12 samples.

Results

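Markers of neocortical layers and of the subiculum were examined in RNA from mouse hippocampus. The set was chosen by gene symbol: 33 symbols were listed, 32 had a row in the table of raw counts, and 31 of those passed the filter on low counts, out of 24421 named genes in all and 13065 past the filter. Nxph4, a neurexophilin of layer 6b, did not pass, with 0 to 6 counts per library, and Tbr1-as had no row under that symbol and was not analysed here. The 12 libraries came from hippocampus of mice 2 months of age that had received BrdU, a thymidine analogue taken up by dividing cells. There were 3 libraries for each of 4 genotypes: WT, 5xFAD, p75NTRko and 5xFAD/p75NTRko. 5xFAD mice are a transgenic model of Alzheimer's disease whose transgenes are driven in neurons by the Thy1 promoter, and p75NTRko stands for loss of p75NTR, the neurotrophin receptor that Ngfr encodes. Sequencing read the 3′ ends of polyadenylated transcripts, so a count carries no gene-length term, and levels are given as CPM, counts scaled to a common library size after TMM normalization.

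The neocortex is built of layers of excitatory neurons with different targets. Upper-layer cells, marked by Cux1 and Cux2, connect areas of cortex, layer 4 cells receive thalamic input, layer 5 cells project below the cortex under Fezf2 and Bcl11b, and layer 6 cells marked by Foxp2, Tle4 and Rprm project to the thalamus. The subiculum joins the hippocampus to the cortex next to CA1, so a dissection can carry a varying amount of either. Several listed genes are also expressed inside the hippocampus: Bcl11b, for example, is strong in dentate granule cells and CA1, and Foxp2 and Rorb are also thalamic genes.

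The libraries held between 4316739 and 6683613 counts assigned to genes, and 3 counts corresponded to 0.445 to 0.689 CPM. Ngfr RNA was higher, not lower, under the knockout label, at 5.94 to 10.5 CPM in the 6 libraries with the receptor label and 0.166 to 1.94 CPM in the other 6. Counts of 3′ ends do not show whether the receptor itself is lost, so those genotypes are given as labelled. Xist lay at 359 to 439 CPM in every WT library, every 5xFAD/p75NTRko-labelled library and p75NTRko-labelled replicate 1, and at 1.53 to 3.57 CPM in the rest, so that genotype and this class cannot be told apart where 5xFAD is set against WT or against 5xFAD/p75NTRko. All libraries have the same batch label. The labels call the libraries biological replicates without naming animals.

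Several layer markers differed widely between libraries of the same genotype. Rspo1, a secreted enhancer of Wnt signalling expressed in layer 4, was measured in WT replicates 1, 2 and 3 at 9.85, 1.46 and 1.82 CPM, in 5xFAD at 0.678, 2.06 and 0.630 CPM, at 2.22, 1.38 and 1.34 CPM in p75NTRko-labelled libraries, and at 1.16, 1.56 and 6.88 CPM in 5xFAD/p75NTRko-labelled libraries. Cux2, a homeodomain factor of upper-layer neurons, was at 13.3, 3.89 and 5.63 CPM in WT, 3.56, 5.25 and 1.47 CPM in 5xFAD, 3.33, 4.13 and 3.27 CPM in p75NTRko-labelled libraries and 4.99, 4.28 and 13.3 CPM in 5xFAD/p75NTRko-labelled libraries. For both genes WT replicate 1 and 5xFAD/p75NTRko replicate 3 stood above the other 10 libraries. WT overlapped every other genotype for both genes.

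Cplx3, a complexin that marks layer 6b, was at 9.996, 9.88 and 1.66 CPM in WT and at 1.995, 1.95 and 12.3 CPM in 5xFAD/p75NTRko-labelled libraries. It was at 2.71, 5.25 and 3.36 CPM in 5xFAD and at 8.14, 2.30 and 1.63 CPM in p75NTRko-labelled libraries. High values of Cplx3 therefore occurred in 4 libraries of 3 genotypes: WT replicates 1 and 2, p75NTRko replicate 1 and 5xFAD/p75NTRko replicate 3. Rprm, which encodes the layer 6 marker Reprimo, repeated part of that pattern at a higher level, with 72.2, 80.5 and 39.4 CPM in WT and 48.6, 55.3 and 91.8 CPM in 5xFAD/p75NTRko-labelled libraries, against 44.3 to 53.3 CPM in 5xFAD and 44.1 to 54.4 CPM in p75NTRko-labelled libraries. Deptor, an inhibitor of mTOR and a layer 5 marker, was at 66.7, 54.9 and 38.3 CPM in WT and at 38.4, 27.3 and 62.4 CPM in 5xFAD/p75NTRko-labelled libraries.

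**Figure D1:**
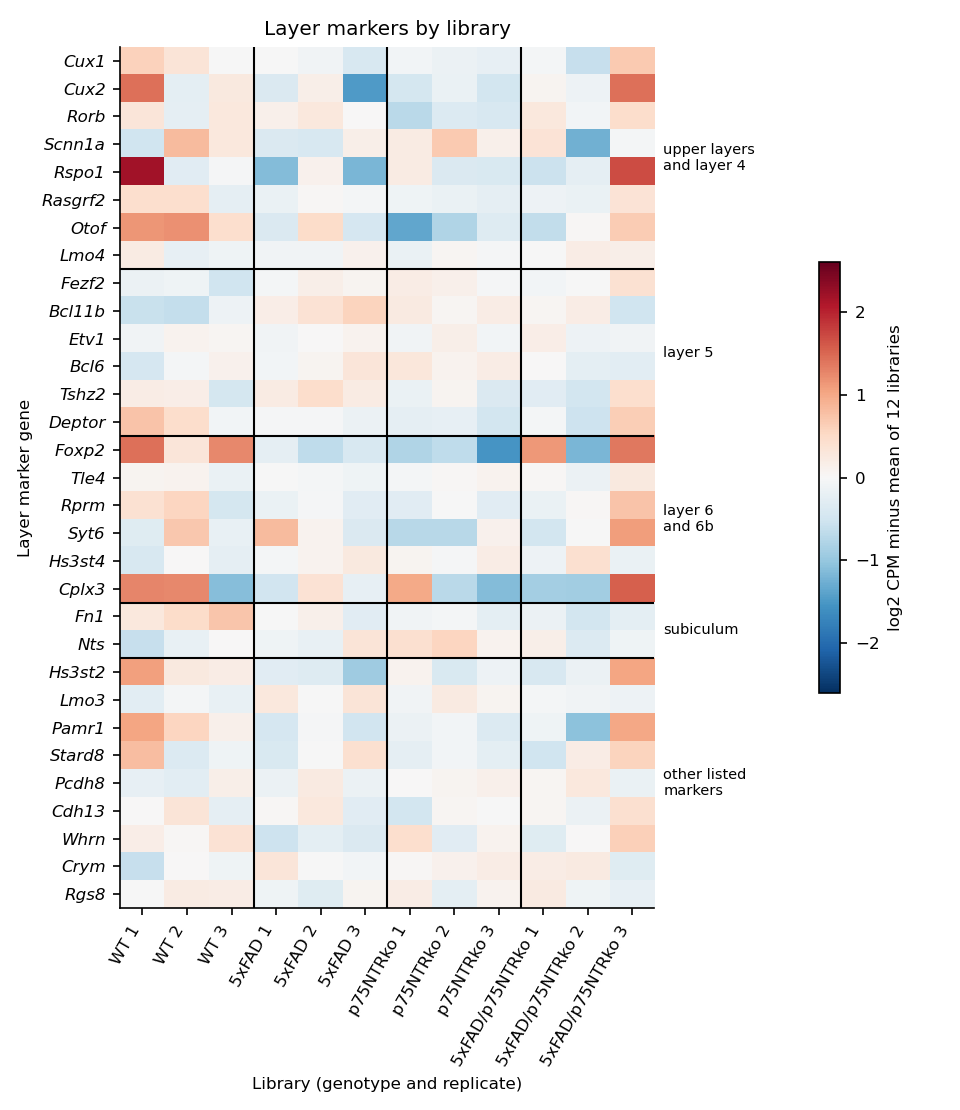
Level of each of the 31 layer markers past the filter (rows, grouped by layer) in each of the 12 libraries (columns, by genotype and replicate), as log2 CPM minus that gene's mean over all libraries. WT replicate 1 and 5xFAD/p75NTRko replicate 3 are red in most upper-layer rows, and Bcl11b and Crym are blue there.

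The stretches upstream of 4 members are shown for their different levels in 5xFAD/p75NTRko replicate 3, where Rspo1, Cplx3 and Rprm were the highest of their genotype and Pcdh8, a protocadherin, the lowest. Each runs 5′ to 3′ on the gene's strand from 250 to 31 bases before its annotated start, from RefSeq on GRCm38.p6, the build that mm10 names. For Rspo1 that start lies 29 bases inside the edge of the gene. Rspo1 lies on chr4:124986401-125009102 (plus strand, window chr4:124986180-124986399), Cplx3 on chr9:57599992-57606281 (minus strand, window chr9:57606312-57606531), Rprm on chr2:54084093-54085552 (minus strand, window chr2:54085583-54085802) and Pcdh8 on chr14:79766772-79771312 (minus strand, window chr14:79771343-79771562).
Rspo1: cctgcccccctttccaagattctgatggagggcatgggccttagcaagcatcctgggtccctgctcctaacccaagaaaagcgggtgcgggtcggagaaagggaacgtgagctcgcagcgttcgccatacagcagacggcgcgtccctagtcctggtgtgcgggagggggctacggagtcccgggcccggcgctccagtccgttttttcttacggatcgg
Cplx3: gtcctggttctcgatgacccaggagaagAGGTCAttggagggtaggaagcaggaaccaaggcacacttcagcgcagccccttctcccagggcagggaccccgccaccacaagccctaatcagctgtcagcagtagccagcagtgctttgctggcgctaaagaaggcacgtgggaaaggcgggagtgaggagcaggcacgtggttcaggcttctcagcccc
Rprm: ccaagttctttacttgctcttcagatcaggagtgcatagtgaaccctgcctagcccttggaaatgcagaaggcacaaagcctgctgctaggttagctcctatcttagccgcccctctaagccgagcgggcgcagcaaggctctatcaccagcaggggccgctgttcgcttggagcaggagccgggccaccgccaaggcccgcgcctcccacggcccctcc
Pcdh8: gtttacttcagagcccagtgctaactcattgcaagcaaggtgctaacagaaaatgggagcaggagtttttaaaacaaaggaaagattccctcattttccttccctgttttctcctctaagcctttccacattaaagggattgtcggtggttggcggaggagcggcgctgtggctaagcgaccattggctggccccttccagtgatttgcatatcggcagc
Capitals mark the letters AGGTCA, the core bound by ROR nuclear receptors such as the Rorb product, searched on both strands together with the E-box CAGATG. The ROR core was found for 4 of the 23 members with an entry (Cplx3, Rgs8, Stard8 and Syt6) and in 12.5% of all 32851 windows of this length, and the E-box for 2 members (Cux2 and Etv1) and in 13.0% of windows. A member with several windows was counted if any of them held the letters, whereas the percentages are of single windows. The member counts and the percentages are therefore not on the same footing. The 4 windows shown had a G and C content of 63.2%, 60.9%, 61.8% and 49.1% in the order printed, against a median of 51.8% over all windows. The 32 members with a row lie on 17 chromosomes.

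Counted over the set, 5xFAD/p75NTRko replicate 3 was the highest of its genotype for 19 of 31 members, against 34.6% of all genes tested. In the other genotypes the leading libraries were highest for fewer members: WT replicate 1 for 12 (28.3% of all genes), WT replicate 2 for 13 (34.8%), 5xFAD replicate 2 for 15 (32.5%) and p75NTRko replicate 2 for 15 (33.5%). That library was over 2-fold above the mean of the other 2 libraries of its genotype for 6 members (Cplx3, Rspo1, Pamr1, Cux2, Hs3st2 and Syt6), against 1.72% of all genes, with Cplx3 at 5.44-fold and Pamr1 at 2.86-fold. WT replicate 1 was over 2-fold above the other WT libraries for 3 members, Rspo1 at 5.12-fold, Cux2 at 2.67-fold and Stard8 at 2.05-fold, against 0.719% of all genes. These folds were taken on the log2 scale with a prior count of 2, which shrinks those of low genes. The lowest library of its genotype was 5xFAD/p75NTRko replicate 2 for 15 members (33.4% of all genes), 5xFAD replicate 3 for 15 (35.7%), p75NTRko replicate 3 for 14 (32.2%) and WT replicate 3 for 12 (33.6%). 5xFAD/p75NTRko replicates 1 and 2 were over 2-fold below the other libraries for 4 and 6 members, against 1.01% and 3.31% of all genes.

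Members listed here as also hippocampal and the rest took different positions in 5xFAD/p75NTRko replicate 3. Of the 21 members not so listed, 15 were highest in 5xFAD/p75NTRko replicate 3 and 2 were lowest there. Of the 10 listed for hippocampal fields (Bcl11b, Cux1, Cux2, Bcl6, Lmo3, Lmo4, Crym, Pcdh8, Cdh13 and Hs3st2), 4 were highest and 5 lowest in that library. Over all genes, 34.6% were highest and 36.5% lowest there, shares to which the counts of the 10 lay closer than those of the 21. In WT replicate 1 the groups did not part in this way. There 8 of the 21 were highest and 7 lowest, and 4 of the 10 were highest and 3 lowest, against 28.3% and 28.6% of all genes. The listing does not show that the 21 are absent from the hippocampus. Rasgrf2 and Hs3st4, among the 21, were at 137 to 218 and 112 to 199 CPM over all libraries. Crym, a thyroid-hormone-binding crystallin, was at 262, 399 and 369 CPM in WT, 494, 396 and 380.0 CPM in 5xFAD, 408, 429 and 453 CPM in p75NTRko-labelled libraries and 453, 469 and 320.4 CPM in 5xFAD/p75NTRko-labelled libraries. Its lowest values were thus those of WT replicate 1 and 5xFAD/p75NTRko replicate 3, the libraries in which Cux2 and Rspo1 were highest.

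Between libraries of a genotype, the members' SD had a median of 0.287 log2 units, against 0.216 over all genes tested, and 13 of 31 members lay in the upper 25% of all genes. Among genes with a mean of at least 50 counts the medians were 0.247 for 23 members and 0.174 for 9326 genes. Cplx3, Rspo1 and Foxp2 had the widest spread, with an SD larger than 99.6%, 99.4% and 98.5% of genes, and the lowest library of Rspo1 held 3 counts, so that counting error is large there. The 3 libraries of a genotype differed by over 1 log2 unit for 12 members in 5xFAD/p75NTRko (10.5% of all genes), 8 in WT (11% of all genes), 3 in 5xFAD (7.13% of all genes) and 2 in p75NTRko-labelled libraries (6.57% of all genes). For 25 of 31 members the widest such range exceeded the span of the 4 genotype means, which also held for 11977 of 13065 genes. It was therefore not particular to the members. The range is of single libraries and the span is of means of 3, which favours the range. The median span of genotype means was 0.486 log2 units for members and 0.305 for all genes.

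**Figure D2:**
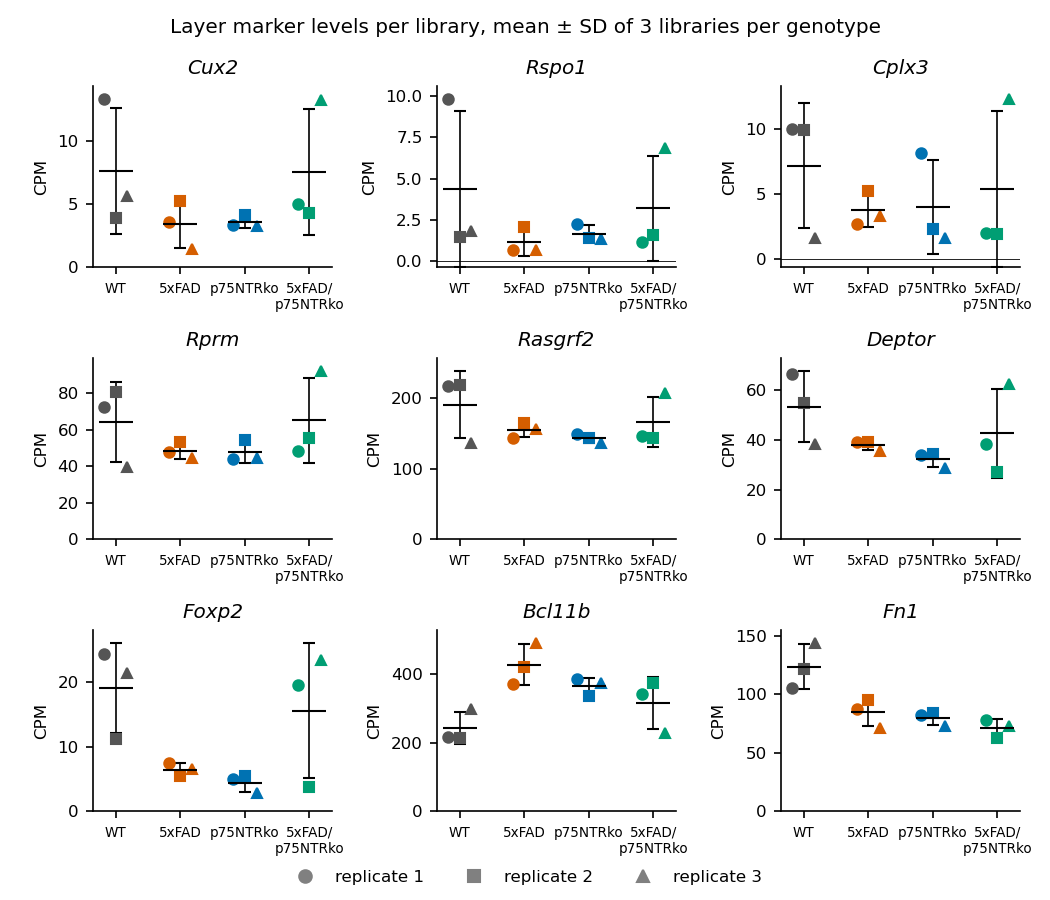
Level in CPM (vertical axes, linear) of 9 members in each library, by genotype; points are libraries, with a marker for each replicate, and bars are the mean and SD of 3 libraries. Cux2 and Rspo1 are high in WT replicate 1 and 5xFAD/p75NTRko replicate 3, and Fn1 is higher in the 3 WT libraries than in the other 9.

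Summarised as a mean over the 31 members of log2 CPM, the layer marker level of WT replicates 1, 2 and 3 was 5.11, 4.98 and 4.80, that of 5xFAD 4.68, 4.82 and 4.65, with 4.71, 4.70 and 4.63 in p75NTRko-labelled libraries and 4.73, 4.58 and 5.23 in 5xFAD/p75NTRko-labelled libraries. Its range within 5xFAD/p75NTRko was 0.65 log2 units and within WT 0.31, both above the 0.29 between the highest and lowest genotype means, while within 5xFAD and p75NTRko-labelled libraries it was 0.18 and 0.08. The range within 5xFAD/p75NTRko came from replicate 3, without which it was 0.151, and that within WT was 0.126 without replicate 3, 0.184 without replicate 1 and 0.31 without replicate 2. With the summed CPM in place of the mean of logs, which weights the most abundant members (Lmo4, Crym and Bcl11b), the ranges within WT and 5xFAD/p75NTRko were 0.04 and 0.05, and 5xFAD/p75NTRko replicate 3 was no longer the highest of its genotype. No test was made on this level, because the members were chosen with earlier results of these data known.

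The mean of each layer's markers had its own range within a genotype. The 8 upper-layer and layer 4 markers ranged over 0.95 log2 units within 5xFAD/p75NTRko and 0.63 within WT, and the 6 layer 6 markers over 1.11 and 0.64, whereas the 6 layer 5 markers ranged over 0.31 and 0.16. The layer 5 mean joins members that went opposite ways: within 5xFAD/p75NTRko, Deptor, Tshz2 and Bcl11b ranged over 1.18, 0.92 and 0.71 log2 units, with replicate 3 above the mean of the other 2 libraries by 0.92 for Deptor and 0.82 for Tshz2 and at -0.64 relative to it for Bcl11b. In WT, replicate 1 was the highest for the upper layers (4.89, against 4.39 and 4.27 in replicates 2 and 3) and replicate 2 for layer 6 (4.85, against 4.77 and 4.21). The 2 subicular genes, Fn1 and Nts, went another way: their mean was 5.31, 5.63 and 5.84 in WT and 5.48, 5.06 and 5.30 in the 5xFAD/p75NTRko genotype. Replicate 3 stood at the top in WT and replicate 1 in 5xFAD/p75NTRko. Those libraries also had the highest means of their genotypes for the dentate gyrus, thalamic, choroid plexus, endothelial and oligodendrocyte lists described below. The endothelial means there, for example, were 4.45 and 4.32. The pattern was therefore not particular to subicular genes.

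A list of 18 further neocortical genes, 16 of them past the filter and none a member, was also highest in WT replicate 1 and 5xFAD/p75NTRko replicate 3. Its mean log2 CPM was 4.54, 4.20 and 3.94 in WT, 3.87, 4.11 and 3.74 in 5xFAD, 4.02, 3.97 and 3.81 in p75NTRko-labelled libraries and 3.82, 3.53 and 4.54 in 5xFAD/p75NTRko-labelled libraries, and 13 of its 16 genes were highest in 5xFAD/p75NTRko replicate 3. Nr4a2, a nuclear receptor of deep cortical layers and the most abundant of them, was at 109, 211 and 95.4 CPM in WT and 92.8, 103 and 205 CPM in 5xFAD/p75NTRko-labelled libraries. The 4 tested genes of a further subicular and retrohippocampal list had means of 2.56, 2.59 and 3.07 in WT and 2.59, 2.18 and 2.28 in 5xFAD/p75NTRko-labelled libraries. These means were highest in WT replicate 3 and 5xFAD/p75NTRko replicate 1, where 2 and 1 of the 4 genes were the highest of their genotype. Gpr101, the most abundant of the 4, was lowest of WT in replicate 3. It was at 24.9, 29.5 and 23.2 CPM in WT and 22.6, 14.6 and 16.5 CPM in 5xFAD/p75NTRko-labelled libraries.

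Most CA field and dentate genes were lowest of their genotype in 5xFAD/p75NTRko replicate 3. The mean of 11 CA field genes was 4.86, 5.18 and 5.43 in WT and 5.397, 5.45 and 5.02 in 5xFAD/p75NTRko-labelled libraries, and that of 10 dentate gyrus genes 4.27, 4.31 and 4.91 in WT and 4.88, 4.68 and 4.297 in 5xFAD/p75NTRko-labelled libraries. In 5xFAD/p75NTRko replicate 3, 8 of 11 CA field genes and 8 of 10 dentate genes were the lowest of their genotype, and in WT replicate 1, 8 of 11 CA field genes and 4 of 10 dentate genes were. Mpped1, the most abundant CA field gene, went the other way, at 284, 305 and 215 CPM in WT and 232, 283 and 348 CPM in 5xFAD/p75NTRko-labelled libraries, and was at 248 to 297 CPM in the other 6. By summed CPM the CA field list stood at 718, 886 and 816 in WT and 821, 953 and 908 in 5xFAD/p75NTRko-labelled libraries. On that scale WT replicate 1 was again the lowest of WT and 5xFAD/p75NTRko replicate 3 was not the lowest of its genotype. In bulk tissue, fewer cells of a type and less RNA per cell cannot be told apart. The part of these fields in the members' differences was not tested.

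Lists for other tissues and cell types differed in which libraries were high. The mean of 13 thalamic and habenular genes was 4.47, 4.78 and 4.93 in WT and 5.12, 3.23 and 3.89 in 5xFAD/p75NTRko-labelled libraries, with a range of 3.66 to 4.18 in 5xFAD and of 3.41 to 3.51 where the receptor label stands alone. The mean of the 9 striatal genes tested was 4.15, 4.10 and 4.04 in WT and 3.43, 3.21 and 3.87 in 5xFAD/p75NTRko-labelled libraries, and lay at 3.39 to 3.79 in the other 6 libraries. Replicate 3 was the highest within 5xFAD/p75NTRko but lay below every WT library. Within WT the range was 0.11, and each replicate was the highest for 3 of the 9 genes. The 7 interneuron genes had their 2 highest means of the 12 libraries in WT replicate 1 and 5xFAD/p75NTRko replicate 3, at 6.84 and 6.77, against 6.34 to 6.596 elsewhere. The 10 oligodendrocyte genes had their lowest mean, 7.00, in 5xFAD/p75NTRko replicate 3, where 9 of the 10 were the lowest of their genotype, and lay at 7.21 to 7.94 in the other libraries. The 13 choroid plexus genes ranged over 4.20 log2 units within 5xFAD/p75NTRko, from 1.63 in replicate 2 to 5.83 in replicate 1. The part of these tissues and cell types in the members' differences was not tested.

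**Figure D3:**
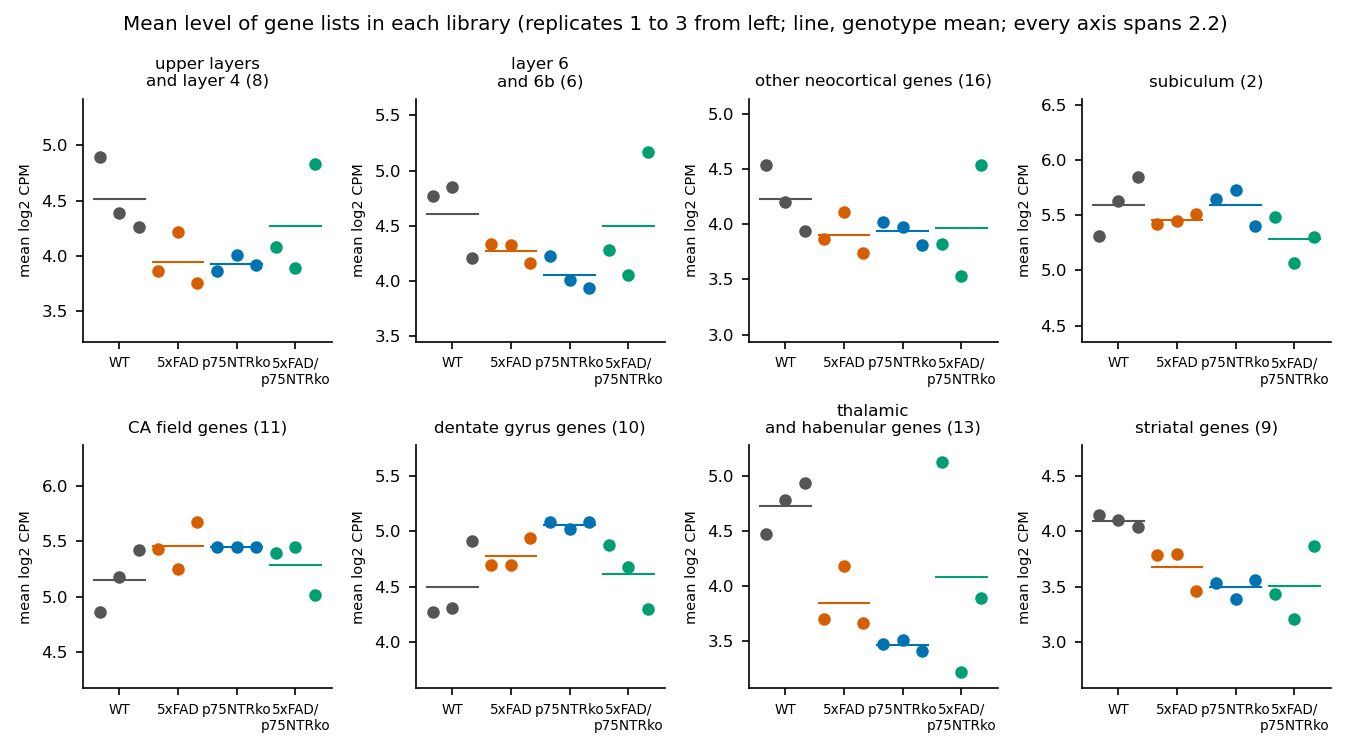
Mean log2 CPM (vertical axes, each spanning 2.2 units) of 8 gene lists in the 12 libraries, with the number of genes in brackets; points are replicates 1, 2 and 3 of each genotype from left to right and lines are genotype means. The upper-layer, layer 6 and further neocortical lists are highest in 5xFAD/p75NTRko replicate 3 or WT replicates 1 and 2, where the dentate gyrus list is lowest.

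The libraries with the 3 highest layer marker levels, 5xFAD/p75NTRko replicate 3 and WT replicates 1 and 2, also had the 3 lowest scores on the first principal component of log2 CPM, which held 22.7% of the variance, at -18.3, -23.1 and -43. Computed without the members and every listed gene, this component gave those libraries -18, -22 and -43. The highest score, 20, went to 5xFAD/p75NTRko replicate 2, the library with the lowest layer marker level. As 12931 of 13065 genes remained, the component could change little. The 2 orders differed elsewhere: 5xFAD replicate 2 had rank 4 by layer marker level and rank 8 from the lowest score.

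Across genotypes, no member passed an adjusted p of 0.05 in any of the 6 comparisons by edgeR's quasi-likelihood test. The members called numbered 0 of 31 in 5xFAD against WT, where 0.0536% of all genes were called, and 10 had an unadjusted p under 0.05 (13.9% of all genes), 2 of them higher (7.73%) and 8 lower (6.14%). The median log2 fold change over the 31 was -0.19, against -0.0036 over all genes, with 12 above 0 and 19 below. Libraries of both genotypes did not overlap for 4 members in the higher direction (10.5% of all genes) and 6 in the lower (9.02% of all genes).

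Bcl11b, the zinc-finger factor of layer 5, dentate and CA1 neurons, had the smallest p among members in 5xFAD against WT. It was at 218, 214 and 297 CPM in WT, 371, 422 and 489 CPM in 5xFAD, 385, 337 and 373 CPM in p75NTRko-labelled libraries and 341, 374 and 229 CPM in 5xFAD/p75NTRko-labelled libraries. Every 5xFAD library exceeded every WT library, and the log2 fold change was 0.81 (SE 0.17, adjusted p 0.109, edgeR). DESeq2 called it, at an adjusted p of 0.00376, as did edgeR with no filter on low counts (0.0192), without WT replicate 3 (0.0418) and without 5xFAD/p75NTRko replicate 3 (0.0210), while with Xist class as a term its adjusted p was 0.949. Xist class fully separates WT from 5xFAD, so that term rests on the p75NTRko-labelled libraries, which alone hold both classes. The log2 fold change of Bcl11b stayed at 0.71 to 0.98 under every alternative, this one included. Lmo3, a LIM-only cofactor, was at 59.4, 69.8 and 63.0 CPM in WT and 87.5, 72 and 90.7 CPM in 5xFAD, against 68.1, 84.9 and 75.4 CPM in p75NTRko-labelled libraries and 69.5, 67.7 and 65.5 CPM in 5xFAD/p75NTRko-labelled libraries. All 5xFAD libraries lay above WT, without passing (log2 fold change 0.38, SE 0.114, adjusted p 0.236, edgeR).

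Fn1 was higher in WT than in the other 9 libraries, and Fezf2 was the member lower in WT than in the other 9. Fn1 encodes fibronectin, a matrix protein used as a subicular marker and also made by vascular cells, and was at 105, 122 and 144 CPM in WT, 87.3, 95.1 and 71.4 CPM in 5xFAD, 82.4, 84.0 and 73.2 CPM in p75NTRko-labelled libraries and 78.0, 62.3 and 73.0 CPM in 5xFAD/p75NTRko-labelled libraries. Set against WT, it had a log2 fold change of -0.54 in 5xFAD (SE 0.133, adjusted p 0.157), -0.63 with the receptor label alone (SE 0.134, adjusted p 0.160) and -0.80 in 5xFAD/p75NTRko-labelled libraries (SE 0.134, adjusted p 0.0679), by edgeR. These comparisons share the WT libraries. DESeq2 called Fn1 in all 3, at adjusted p-values of 0.0389, 0.0114 and 0.000159. Over all alternative runs, by edgeR or DESeq2, its highest adjusted p-values in these comparisons were 0.949, 0.816 and 0.467. The mean of 10 endothelial genes lay at 4.01 to 4.45 in WT and at 4.06 to 4.38 in the other 9 libraries, so the genotypes overlapped there.

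In p75NTRko-labelled libraries against WT, 0 of 31 members were called by edgeR (0% of all genes), 12 had an unadjusted p under 0.05 (11.5% of all genes) and the median log2 fold change was -0.19 (all genes -0.0006). The 12 were 5 higher and 7 lower, against 5.33% and 6.16% of all genes. Libraries did not overlap for 4 members in the higher direction (7.93% of all genes) and 8 in the lower (8.51% of all genes). Otof, the calcium sensor otoferlin and an upper-layer marker, was at 8.95, 9.24 and 5.30 CPM in WT, 1.30, 2.07 and 2.97 CPM in p75NTRko-labelled libraries, 2.88, 5.44 and 2.73 CPM in 5xFAD and 2.33, 3.89 and 6.22 CPM in 5xFAD/p75NTRko-labelled libraries. WT and p75NTRko-labelled libraries did not overlap, and the log2 fold change of -1.85 (SE 0.414) had an adjusted p of 0.171 by edgeR, 0.0173 by DESeq2 and 0.0366 with no filter. The highest adjusted p of Otof over all alternative runs, by edgeR or DESeq2, was 0.816. Nts, which encodes neurotensin of the subiculum, was at 14.6, 19.6 and 22.5 CPM in WT and 30.2, 33.1 and 23.9 CPM in p75NTRko-labelled libraries, 20.7, 19.5 and 28.6 CPM in 5xFAD and 25.1, 17.5 and 20.8 CPM in 5xFAD/p75NTRko-labelled libraries. It was higher in each p75NTRko-labelled library than in any WT library, opposite to Fn1, and did not pass (log2 fold change 0.61, SE 0.2, adjusted p 0.336, edgeR).

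Foxp2, the forkhead factor of layer 6 cells and of thalamus, had the largest fold change of the members in p75NTRko against WT and in the interaction. It was at 24.5, 11.2 and 21.5 CPM in WT, 7.46, 5.44 and 6.51 CPM in 5xFAD, 4.997, 5.51 and 2.82 CPM in p75NTRko-labelled libraries and 19.6, 3.70 and 23.4 CPM in 5xFAD/p75NTRko-labelled libraries. WT stood above 5xFAD and above p75NTRko-labelled libraries without overlap, and 5xFAD/p75NTRko replicate 2 fell among the low libraries. By edgeR, its difference from WT on the log2 scale was -1.55 in 5xFAD (SE 0.475, adjusted p 0.236) and -2.14 with the receptor label alone (SE 0.502, adjusted p 0.201). Without 5xFAD/p75NTRko replicate 2 edgeR called Foxp2 in 5xFAD against WT (adjusted p 0.0488), p75NTRko against WT (0.0159), 5xFAD/p75NTRko against p75NTRko (0.0242) and the interaction (0.00133). With no filter, edgeR called it in p75NTRko against WT (0.0238) and in the interaction (0.00919). DESeq2 called it in the interaction, and edgeR with the compared genotypes only called it in p75NTRko against WT. The remaining alternatives did not call it. Over all alternative runs, by edgeR or DESeq2, its highest adjusted p was 0.816 in p75NTRko against WT. It was 0.998 in 5xFAD/p75NTRko against p75NTRko and 0.999 in the interaction. The thalamic and habenular list resembled it in part, with a mean log2 CPM of 5.12 in 5xFAD/p75NTRko replicate 1 and 3.23 in replicate 2, but of 3.89 in replicate 3, where Foxp2 was highest in that genotype. Its part in the Foxp2 difference was not tested.

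Against 5xFAD, the 5xFAD/p75NTRko-labelled libraries gave 0 of 31 members called by edgeR (0.0383% of all genes) and 0 by DESeq2, and 5 with an unadjusted p under 0.05 (5.08% of all genes), 3 of them higher (1.98%) and 2 lower (3.1%). The median log2 fold change was 0.10 (all genes 0.0122). All 8 upper-layer markers had a value above 0, with a median of 0.16, against 52.8% of all genes above 0. Of these 8, 6 were the highest of their genotype in 5xFAD/p75NTRko replicate 3. Lmo3 was the 1 member whose libraries did not overlap, lower in 5xFAD/p75NTRko (6.02% of all genes in that direction), by -0.30 (SE 0.114, adjusted p 0.852, edgeR). Foxp2 and Bcl11b had the next smallest p-values, with log2 fold changes of 1.28 (SE 0.482, adjusted p 0.861) and -0.44 (SE 0.169, adjusted p 0.878, edgeR).

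Against p75NTRko-labelled libraries, the 5xFAD/p75NTRko-labelled ones gave 0 members called by edgeR (0% of all genes), 0 by DESeq2 and 5 with an unadjusted p under 0.05 (6.6% of all genes), of which 3 were higher (3.61%) and 2 lower (2.99%). The median was 0.17 (all genes 0.0143). Libraries did not overlap for Rorb and Cux2, both higher (6.54% of all genes), and for Bcl6, lower (5.74% of all genes). Rorb, the nuclear receptor of layer 4 and thalamic relay cells, was at 21.5, 27.6 and 26.4 CPM in p75NTRko-labelled libraries and 42.7, 33.7 and 48.1 CPM in 5xFAD/p75NTRko-labelled libraries, against 44.0, 29.98 and 42.4 CPM in WT and 38.5, 42.8 and 35.5 CPM in 5xFAD. The p75NTRko-labelled libraries lay below the other 9, and the log2 fold change of 0.73 (SE 0.171) had an adjusted p of 0.444 by edgeR. Bcl6, a transcriptional repressor, was at 106, 92.5 and 100.2 CPM in p75NTRko-labelled libraries and 88.1, 73.6 and 72.4 CPM in 5xFAD/p75NTRko-labelled libraries, with 64.2, 83.9 and 94.1 CPM in WT and 82.6, 91.1 and 109 CPM in 5xFAD (log2 fold change -0.35, SE 0.142, adjusted p 0.713, edgeR).

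Against WT, the 5xFAD/p75NTRko-labelled libraries gave 0 of 31 members called by edgeR (0% of all genes), 4 with an unadjusted p under 0.05 (9.95% of all genes), 2 of them higher (5.51%) and 2 lower (4.44%), and a median of -0.04 (all genes 0.0042). DESeq2 called Fn1. Fezf2, the zinc-finger factor that specifies layer 5 projection neurons, was at 23.9, 24.6 and 18.6 CPM in WT and 25.1, 26.5 and 35.2 CPM in 5xFAD/p75NTRko-labelled libraries. It was at 25.6, 29.4 and 27.9 CPM in 5xFAD and 30.4, 29.2 and 26.1 CPM in p75NTRko-labelled libraries, so that WT lay below the other 9, with a log2 fold change in this comparison of 0.37 (SE 0.154, adjusted p 0.485, edgeR). Libraries did not overlap for 1 member in each direction, Fezf2 and Fn1, against 5.95% and 5.53% of all genes.

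**Figure D4:**
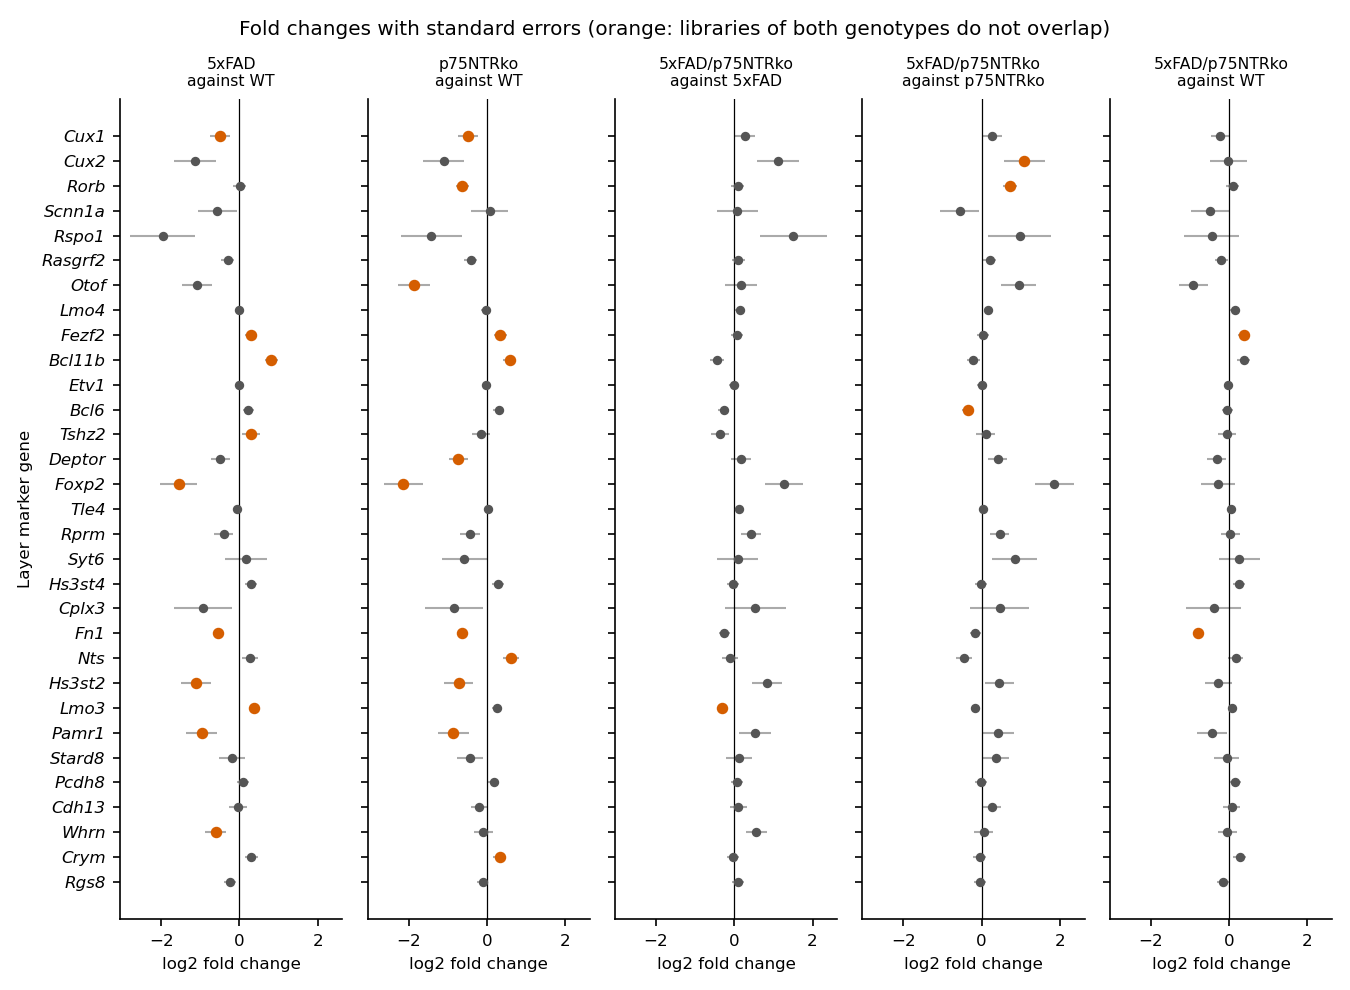
Log2 fold change (horizontal axes) with its standard error for each of the 31 members in 5 comparisons, from edgeR; orange points mark members whose libraries did not overlap between the genotypes compared. No member passed an adjusted p of 0.05, and the widest bars belong to Rspo1, Cplx3, Cux2 and Syt6.

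The interaction, which sets the difference by receptor label in transgenic mice against that in mice without transgenes, called 0 of 31 members by edgeR (0.0383% of all genes), while 14 had an unadjusted p under 0.05 (9.32% of all genes). Of these 14, 10 were above 0 and 4 below, against 5.19% and 4.13% of all genes. The median over the 31 was 0.38, against 0.0025 over all genes. All 8 upper-layer markers were above 0, with a median of 0.74, against 50.3% of all genes above 0. The smallest p-values belonged to Foxp2 (3.42, SE 0.697, adjusted p 0.210), Bcl11b (-1.03, SE 0.239, adjusted p 0.305) and Otof (2.03, SE 0.586, adjusted p 0.363), by edgeR. DESeq2 called Foxp2 and Bcl11b. Over all alternative runs, by edgeR or DESeq2, the highest adjusted p of each was 0.999. The interaction sets WT and 5xFAD/p75NTRko, which hold the 3 libraries with the highest layer marker level, against the other genotypes. Without WT replicate 1 and 5xFAD/p75NTRko replicate 3, an alternative chosen after seeing the data, edgeR called 0 members in each of the 6 comparisons. The smallest adjusted p in the interaction was then 0.643 (edgeR). The count was also 0 with every library kept, and the libraries left out were picked by the members' own levels. This run therefore cannot show what those libraries contribute to the interaction, which was not tested.

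Abundant members differed to unequal extents between libraries. Bcl11b and Crym, after Lmo4 the members with the highest mean, had a within-genotype SD larger than 60.2% and 58.3% of genes, against 26.9% for Lmo4. Lmo4, a LIM-only cofactor of upper layers and the most abundant member, was at 701, 518 and 558 CPM in WT, 565, 565 and 647 CPM in 5xFAD, 530.0, 619 and 587 CPM in p75NTRko-labelled libraries and 596, 689 and 673 CPM in 5xFAD/p75NTRko-labelled libraries. Rasgrf2, a Ras exchange factor of upper layers, was at 217, 218 and 137 CPM in WT and 147, 144 and 206 CPM in 5xFAD/p75NTRko-labelled libraries, with 144, 164 and 156 CPM in 5xFAD and 149.7, 143 and 137 CPM in p75NTRko-labelled libraries. WT replicates 1 and 2 and 5xFAD/p75NTRko replicate 3, the libraries with the most Rprm, were also those with the most Rasgrf2. Tle4, a Groucho co-repressor of layer 6 neurons, was at 114, 116 and 96.2 CPM in WT, 108, 105 and 101 CPM in 5xFAD, 106, 111 and 116 CPM in p75NTRko-labelled libraries and 112, 98.1 and 131 CPM in 5xFAD/p75NTRko-labelled libraries. Hs3st4, a heparan sulfate sulfotransferase of layer 6, was at 112, 149.9 and 128 CPM in WT, 144, 159 and 178 CPM in 5xFAD, 157, 146 and 170.4 CPM in p75NTRko-labelled libraries and 137, 199 and 132 CPM in 5xFAD/p75NTRko-labelled libraries. Tle4 was highest in 5xFAD/p75NTRko replicate 3, and Hs3st4 in replicate 2 of that genotype. Pcdh8 was at 64.9, 62.2 and 84.0 CPM in WT, 67.3, 89.1 and 68.1 CPM in 5xFAD, 76.3, 79.0 and 83.0 CPM in p75NTRko-labelled libraries and 78.3, 91.5 and 66.3 CPM in 5xFAD/p75NTRko-labelled libraries. Etv1, an ETS factor of layer 5, ranged from 60.5 to 74.99 CPM over the 12 libraries.

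Among the other members, Cux1 was at 44.6, 37.1 and 28.8 CPM in WT and at 28.3, 19.1 and 46.8 CPM in 5xFAD/p75NTRko-labelled libraries. Hs3st2, a sulfotransferase related to the Hs3st4 product, and Pamr1 had 14.5 and 15.2 CPM in WT replicate 1 and 14.1 and 14.9 CPM in 5xFAD/p75NTRko replicate 3, above their other 10 libraries, at 3.36 to 8.10 and 3.31 to 10.9 CPM. Tshz2, a zinc-finger factor of near-projecting layer 5 cells, was lowest in 5xFAD/p75NTRko replicate 2 at 19.3 CPM and highest in 5xFAD replicate 2 at 37.5 CPM. Scnn1a, a sodium channel subunit of layer 4, and Syt6, a synaptotagmin of layer 6, were near the limit of measurement, at 0.584 to 3.57 and 0.918 to 4.09 CPM. Stard8, Cdh13, Whrn and Rgs8 ranged over 6.65 to 17.2, 8.51 to 16.04, 5.76 to 13.3 and 43.3 to 63.2 CPM. In each of the 10 other gene lists, 0 genes were called by edgeR in any of the 6 comparisons.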

How the data were processed

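The authors deposited a table of counts, whole reads per gene symbol; neither its header nor the labels' protocols record a normalization. Per the submitters' processing notes, HISAT2, SAMtools, HTSeq and edgeR were among the tools and mm10 the build; tool versions, the gene models and whether strand was used are not given in the sources used here. The 5 summary lines at its end were left out; 32.2% to 38.5% of reads were assigned to genes. Columns of other samples numbered 0.

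Genes were tested with edgeR 4.0.16 (limma 3.58.1, R 4.3.3) after filterByExpr and TMM (factors 0.975 to 1.03), by quasi-likelihood with 1 mean for each genotype over 12 libraries, and Benjamini-Hochberg adjustment over 13065 genes. Log2 CPM used a prior count of 2. DESeq2 1.42.0 was an alternative. P-values measure the spread between these libraries, and depth limits cover counting error only. The procedure was tested on simulated data.

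Members and lists were chosen with earlier results of these data known. All members are named. Library values are given for the 3 smallest p-values per comparison, the 3 widest spreads and the 2 most abundant of each layer group; others, including Cux2, Rprm, Deptor, Cux1, Hs3st2 and Pamr1, were chosen after their values were seen. Replicate numbers did not pair libraries: of 18 same-numbered pairs, 2 had deviations correlated above 0.1 (range -0.424 to 0.145). Nectin3 had no row under that symbol in the CA field list.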

Additional observations from a re-analysis of the deposited data

How the results depend on the processing

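Directions of the 18 named fold changes held under every alternative run. For alternatives other than the replicate block, the number of all genes called is not given here. Member counts under those alternatives are thus not set against genes at large. The count of members called moved from 0 in 5 comparisons. In 5xFAD against WT it was 2 by DESeq2 (Bcl11b and Fn1) and 1 with no filter on low counts; in p75NTRko against WT, 2 by DESeq2 (Otof and Fn1), 3 with no filter (Otof, Foxp2 and Fn1) and 1 with the compared genotypes only (Foxp2); in 5xFAD/p75NTRko against WT, 1 by DESeq2 and 1 with no filter; in the interaction, 2 by DESeq2 and 1 with no filter. Leaving out each library in turn gave 0 to 1 for the interaction, for 5xFAD and for p75NTRko set against WT and for 5xFAD/p75NTRko set against p75NTRko, and 0 in the others; the 1 was Bcl11b without WT replicate 3 or 5xFAD/p75NTRko replicate 3, and Foxp2 without 5xFAD/p75NTRko replicate 2. With a replicate block the count was 0 in each comparison, as with Xist class as a term; the block left 1, 0, 0, 0, 0 and 3 genes of the whole table called, against 7, 0, 5, 0, 0 and 5. The range of the layer marker level within WT was 0.60 with the median over members, 0.0437 with summed CPM and 0.0975 for members with a mean of at least 50 counts; within 5xFAD it was 0.0809 and 0.0658 under the latter pair; within 5xFAD/p75NTRko it was 0.0532 with summed CPM; and within p75NTRko it was 0.205 with the median and 0.146 without members known from hippocampal fields. Leaving out a library, so that 2 remained in its genotype, gave 0.126 to 0.31 in WT, 0.0314 to 0.179 in 5xFAD, 0.0118 to 0.0826 in p75NTRko, 0.151 (without replicate 3) to 0.651 in 5xFAD/p75NTRko and 0.216 to 0.371 for the span of genotype means. Beyond fewer genes or libraries, the cause of these moves was not tested. Rspo1, Scnn1a, Syt6 and Nxph4 are limited by depth.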
